A study of Mus musculus with 6 samples.

Results

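The genes described here are 10 genes of fibroblast growth factor (FGF) signalling, out of 21938 protein-coding genes of the GENCODE mouse annotation. They are the receptors Fgfr1 and Fgfr2, the ligands Fgf3, Fgf4 and Fgf5, and 5 genes known as targets and feedback regulators of ERK signalling, namely Spry2, Spry4, Dusp4, Dusp6 and Etv5. They were chosen by name, with earlier results of these data known. Binding of the transcription factors GATA4 and GATA6 was read from lists of called regions, which are stretches of the mm10 genome where CUT&RUN reads pile up. A region was assigned to a gene when it overlapped, by at least 1 bp, the gene body or the 50 kb to either side of any annotated transcription start site (TSS).

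Regions shared by all 3 GATA4 libraries lay at 7 of the 10 genes, and regions shared by all 3 GATA6 libraries lay at 6 of them. Both receptors, both Sprouty genes, Dusp4 and Etv5 had shared regions of both factors. Dusp6 had a shared region of GATA4 alone, and none of the 3 ligand genes had a shared region of either factor. Over all protein-coding genes, 48.1% had a shared GATA4 region and 38.3% a shared GATA6 region in a window made the same way. Both were found at 33.8% of all genes, and 47.4% had neither, as the 3 ligand genes did. With windows built on only the TSS at the 5′ end of each gene, 6 of the 10 genes had a shared GATA4 region and 4 a shared GATA6 region. The shared GATA6 regions of Fgfr1 and Fgfr2 were assigned through TSSs further along the gene. No share over all genes was computed for those windows.

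The cells were extraembryonic endoderm (XEN) cells, a stem cell line that stands for the primitive endoderm of the blastocyst. The line, 3F2 in the labels, carried a doxycycline-inducible Oct4-Klf4-Sox2-mCherry cassette, a Rosa26-M2rtTA transactivator and an Oct4-GFP reporter, and these alleles were shared by every library. GATA4 was profiled in 3 libraries and GATA6 in 3 libraries, each from 500000 cells before reprogramming. The labels name 1 cell line and do not say whether the libraries came from separate cultures, so the spread between them may be technical. CUT&RUN gives no expression level, so the identity of the cells was not checked against marker genes here.

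FGF ligands bind receptor tyrosine kinases, and the receptors signal through RAS and the kinases RAF, MEK and ERK. In the early embryo, FGF4 from epiblast cells acts on FGFR1 and FGFR2, and inner cell mass cells that receive the signal turn to primitive endoderm, where GATA6 and then GATA4 are expressed. ERK activity raises the transcription of its own inhibitors, the Sprouty proteins and the dual specificity phosphatases, and of ETS factors such as ETV5.

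A set of 4 sequences shows where shared regions lay and whether they held GATA letters. The first pair are the 201 bases around the midpoints of the highest ranked shared regions among the 10 genes, both far from a TSS of the FGF gene. The other pair are from the 5′ ends of Etv5, with shared regions of both factors, and of Dusp6, with a shared region of GATA4 alone. Capitals mark GATA matches, which are AGATAA or AGATAG, and also TGATAA or TGATAG, read on either strand. All 4 are plus strand reads of the GRCm38 reference (mm10), and the Dusp6 run is the 250 bases before the start of its RefSeq promoter entry.
Fgfr2, chr7:130149096-130149296: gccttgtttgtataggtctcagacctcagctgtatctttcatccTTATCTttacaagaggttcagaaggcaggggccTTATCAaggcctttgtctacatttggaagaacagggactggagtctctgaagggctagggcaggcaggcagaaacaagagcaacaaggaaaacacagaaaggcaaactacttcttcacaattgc
Spry2, chr14:105862272-105862472: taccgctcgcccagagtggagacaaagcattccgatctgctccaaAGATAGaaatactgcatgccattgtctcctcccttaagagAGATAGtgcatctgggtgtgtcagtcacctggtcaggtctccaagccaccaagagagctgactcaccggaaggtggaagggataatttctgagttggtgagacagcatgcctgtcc
Etv5, chr16:22439744-22439944: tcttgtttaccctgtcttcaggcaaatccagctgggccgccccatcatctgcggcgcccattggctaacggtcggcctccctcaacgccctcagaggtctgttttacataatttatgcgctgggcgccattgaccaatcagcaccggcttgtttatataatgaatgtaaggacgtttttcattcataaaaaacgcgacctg
Dusp6, chr10:99262981-99263230: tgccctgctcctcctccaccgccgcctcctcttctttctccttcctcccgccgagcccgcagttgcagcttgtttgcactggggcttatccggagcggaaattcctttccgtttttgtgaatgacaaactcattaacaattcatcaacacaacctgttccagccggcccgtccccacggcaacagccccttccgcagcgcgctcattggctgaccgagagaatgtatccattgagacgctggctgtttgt

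The Fgfr2 run held 2 GATA matches on the minus strand, at bases 45 to 50 and 78 to 83 counted from 1 at the 5′ end. The Spry2 run held 2 on the plus strand, at bases 46 to 51 and 86 to 91. It also held an AP-1 match (TGANTCA) at bases 144 to 150 and an ETS core match (CCGGAA) at bases 151 to 156, which adjoin without overlapping. The Etv5 and Dusp6 runs held no match of the 3 motifs.

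The 6 lists held 42446 to 49597 regions each, and the median region peaked at 4 overlapping reads in every list, so many calls rest on few reads. Per the labels each library was sequenced to 30000000 reads. The depth after filtering is unknown and the signal was not scaled for it, so signal was compared only as a percentile within a library's own list. The combined lists, regions called in all 3 libraries of a factor, held 8282 regions for GATA4 and 5170 for GATA6. Called regions were dense on chromosomes 8 and 14, where Fgfr1, Dusp4 and Spry2 lie. On chromosome 8, 74.6% of genes had a combined GATA4 region and 70.3% a combined GATA6 region, and on chromosome 14 these shares were 52.8% and 53.2%.

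The 10 windows held 13 combined GATA4 regions and 7 combined GATA6 regions. Outside chromosomes 8, 14 and 19, a combined GATA4 region lay at 4 of the 7 remaining genes and a combined GATA6 region at 3, and the shares over all genes there were 45.9% and 35.2%. Within 1 kb of a TSS, 4 of the 10 genes had a combined GATA4 region (Spry4, Dusp4, Dusp6 and Etv5) and 3 a combined GATA6 region (the same without Dusp6). Over all genes, 19.8% had a combined GATA4 region there, 13.8% a combined GATA6 region and 10.5% both.

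**Figure D1:**
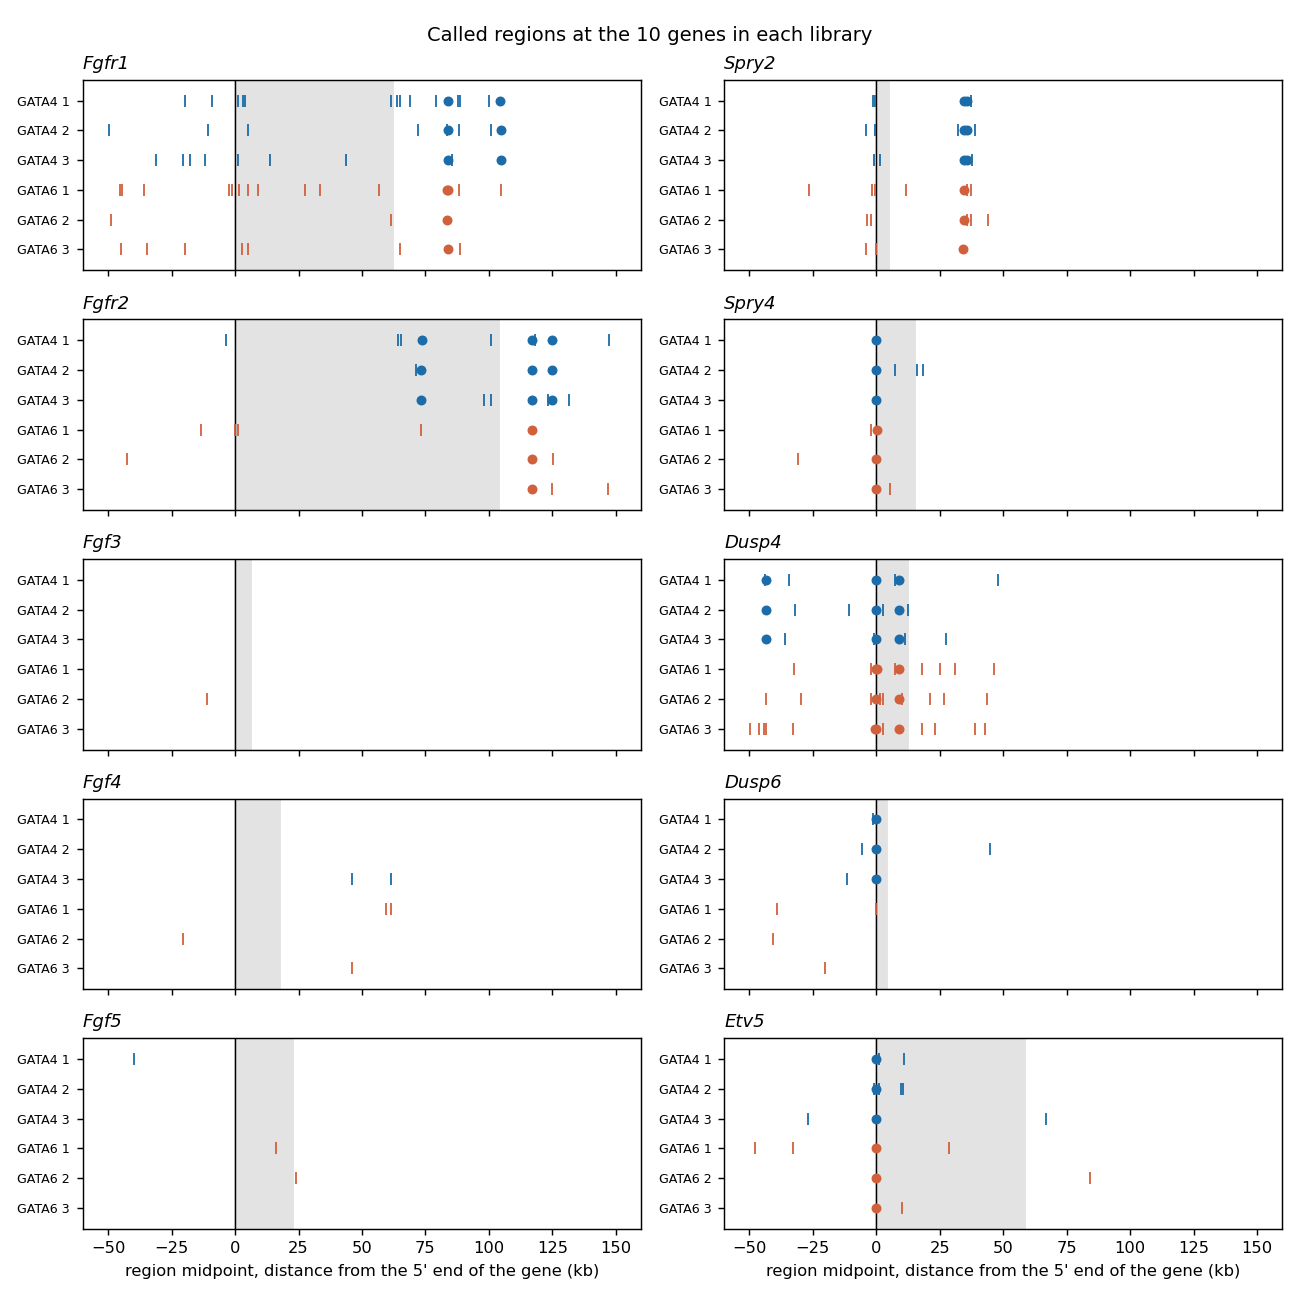
Midpoint of each called region in each of the 6 libraries, as distance in kb from the 5′ end of the gene in the direction of transcription. Grey marks the gene body, dots are regions that are part of the factor's combined list and ticks are the others. Columns of dots at the 5′ end stand at Spry4, Dusp4, Dusp6 and Etv5, and away from it at Fgfr1, Fgfr2, Spry2 and Dusp4.

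Fgfr2 encodes a receptor for FGF ligands, and it carried the highest ranked region of the set. The region lay in intergenic sequence at chr7:130148574-130149818, 12633 bp past the 3′ end of the gene and 18066 bp from the nearest of 13 annotated Fgfr2 TSSs. Its midpoint was 117067 bp from the 5′ end of the gene. Its total signal stood at percentiles 99.4, 99.7 and 99.6 of the GATA4 lists and at 98.6, 99.1 and 98.2 of the GATA6 lists. It peaked at 18, 18 and 20 reads in the GATA4 libraries and at 8, 10 and 7 in the GATA6 libraries. Every GATA4 percentile was above every GATA6 percentile, as was so for 13.9% of the 3793 regions that were called in all 6 libraries over the genome. All 6 libraries placed it in the top 2% of their lists, and by mean percentile it stood at 98.3% of the way up the combined GATA4 list and 94.4% up the combined GATA6 list. The first sequence above is its middle.

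A further combined GATA4 region lay farther past the 3′ end of Fgfr2, at chr7:130141060-130141574, at percentiles 47.0, 91.7 and 76.1. GATA6 replicates 2 and 3 also had a region there, at percentiles 75.8 and 80.4, and GATA6 replicate 1 did not. The last combined GATA4 region of the window lay in an intron, at chr7:130192448-130193431, 2926 bp from an internal TSS, at percentiles 90.4, 75.7 and 63.4. There GATA6 replicate 1 alone had a region, at percentile 33.9. Within 1 kb of an Fgfr2 TSS, a region was called in 1 GATA4 and 1 GATA6 library.

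The Fgfr2 window held 9, 4 and 7 regions in the GATA4 libraries and 5, 3 and 3 in the GATA6 libraries. The groups overlapped, with 6.67 ± 2.52 regions against 3.67 ± 1.15 (SD, n = 3 each, two-sided exact permutation p = 0.2). The smallest p that an exact permutation of 3 against 3 allows is 0.1, so 0 of the 21938 genes had an unadjusted p under 0.05, and every adjusted p was 1 (Benjamini-Hochberg).

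Fgfr1, the other FGF receptor of the early embryo, held no combined region at its own TSSs. One combined region of each factor lay in its window at the TSS of the neighbouring gene Letm2, at chr8:25597440-25597887 for GATA4 and chr8:25596699-25597889 for GATA6. These were 27717 and 26976 bp from the nearest Fgfr1 TSS, with midpoints 84009 and 83640 bp from the 5′ end of Fgfr1. The GATA4 libraries had percentiles of 79.4, 86.0 and 88.7 there, and the GATA6 libraries 78.9, 80.4 and 99.1. The GATA6 replicate 2 region touched the wider GATA6 region but not the GATA4 one. The second combined GATA4 region of the window lay in an intron of Nsd3, at chr8:25617894-25618695, at percentiles 55.8, 68.5 and 48.6. All the combined regions assigned to Fgfr1 thus lay in or at other genes.

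Called regions within 1 kb of one of the 18 annotated Fgfr1 TSSs occurred in 3 GATA4 and 2 GATA6 libraries, but at no place shared by all 3 libraries of a factor. The Fgfr1 window held 15, 9 and 10 regions in the GATA4 libraries and 15, 3 and 8 in the GATA6 libraries. GATA6 replicate 2 had by far the fewest, and without it the sign of the difference turned, from 2.67 to -0.17 regions. The groups overlapped (11.3 ± 3.21 against 8.67 ± 6.03, SD, n = 3 each, exact permutation p = 0.5). A window of this length would hold 7.38 GATA4 and 7.42 GATA6 regions at the mean density of chromosome 8.

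**Figure D2:**
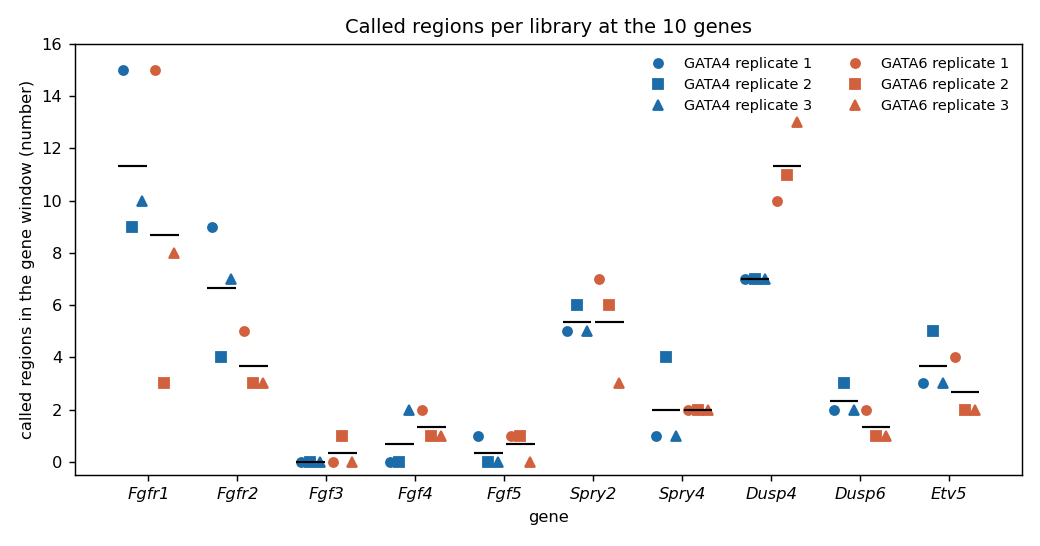
Number of called regions in the window of each of the 10 genes (vertical axis), 1 symbol per library and a black line at the mean of the 3 libraries of a factor. The GATA6 libraries sit at 10, 11 and 13 at Dusp4, above the GATA4 libraries at 7, and the factors overlap or tie at the other 9 genes.

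The ligand genes held between 0 and 2 regions in each of the 6 libraries. FGF4 is the ligand through which the epiblast acts on the primitive endoderm, FGF5 marks the later epiblast, and FGF3 is an embryonic ligand whose gene lies beside Fgf4. Fgf3 had 0, 0 and 0 regions in the GATA4 libraries and 0, 1 and 0 in the GATA6 libraries. Fgf4 had 0, 0 and 2 against 2, 1 and 1. Fgf5 had 1, 0 and 0 against 1, 1 and 0. The windows of Fgf3 and Fgf4 overlap and share 1 of these regions.

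No library had a region within 1 kb of a TSS of a ligand gene. The regions called in most libraries in these windows were a pair at Fgf4, each called in 1 GATA4 and 1 GATA6 library. At chr7:144893207-144893687 the percentiles were 11.6 in GATA4 replicate 3 and 38.5 in GATA6 replicate 3. At chr7:144908594-144909120 they were 53.3 in GATA4 replicate 3 and 83.2 in GATA6 replicate 1. The other ligand regions each came from 1 library.

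The nearest combined GATA4 region to Fgf3 and Fgf4 lay in an intron of Ano1, 105642 bp from the Fgf3 TSS and 114926 bp from that of Fgf4. The nearest combined GATA6 region, at the TSS of Cttn, was 366898 and 376182 bp away. For GATA4, 60.5% of genes had a nearer region than Fgf3 and 62.1% than Fgf4. For GATA6 these shares were 73.6% and 74.0%. For Fgf5 the nearest were intergenic and 1072447 bp (GATA4) and 1072382 bp (GATA6) away, and 93.1% and 89.0% of genes had a nearer one. The mean density of the chromosome would give 1.44 GATA4 and 1.33 GATA6 regions in a window like that of Fgf3, 1.63 and 1.50 in one like that of Fgf4, and 1.42 and 1.24 in one like that of Fgf5. The means at Fgf4 were 0.67 GATA4 and 1.33 GATA6 regions, the latter close to that density.

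Among the Sprouty genes, whose proteins hold back receptor tyrosine kinase signalling, Spry2 had a distal region that ranked close to that of Fgfr2. It lay at chr14:105861742-105863002, 33817 bp from the Spry2 TSS, at the start of the long noncoding RNA gene Gm48970. Its percentiles were 97.0, 99.2 and 97.2 in the GATA4 lists and 97.4, 98.3 and 97.7 in the GATA6 lists. It peaked at 12, 15 and 19 reads in the GATA4 libraries and at 14, 14 and 17 in the GATA6 libraries. The percentiles of both factors overlapped here, and those of the Fgfr2 region did not. The combined GATA6 region, chr14:105861987-105862707, lay within the GATA4 one, and the second sequence above is the middle of the latter.

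Next to it stood a further combined GATA4 region, at chr14:105860590-105861673 in an intron of Gm48970, at percentiles 96.1, 92.5 and 93.4. GATA6 replicates 1 and 2 had a region there at percentiles 90.1 and 79.0, and GATA6 replicate 3 did not. At the Spry2 TSS itself, a region at chr14:105896574-105897744 was called in 2 GATA4 and 2 GATA6 libraries, at percentiles 84.5 and 50.5 for GATA4 and 78.6 and 52.1 for GATA6. It was part of neither combined list. Counting any region within 1 kb of the Spry2 TSS, 3 GATA4 and 2 GATA6 libraries had one. The Spry2 window held 5, 6 and 5 regions in the GATA4 libraries and 7, 6 and 3 in the GATA6 libraries, with the same mean of 5.33.

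Spry4, the other Sprouty gene of the set, had 1 combined region of each factor, and both covered its single TSS. The GATA4 region was chr18:38601276-38601744 and the GATA6 region chr18:38601025-38601928. Percentiles were 94.0, 83.4 and 86.8 in the GATA4 lists and 94.7, 81.8 and 98.6 in the GATA6 lists, and the factors overlapped. The whole window, with the TSS region, held 1, 4 and 1 regions in the GATA4 libraries and 2, 2 and 2 in the GATA6 libraries. Both means were 2, and the mean density of the chromosome would give 1.43 and 1.28.

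Dusp4 and Dusp6 encode dual specificity phosphatases that remove phosphate from ERK, in the nucleus and in the cytoplasm respectively. At Dusp4 both combined lists had a region over the TSS, at chr8:34806965-34807412 for GATA4 and chr8:34806315-34807873 for GATA6. The highest region of each library there stood at percentiles 88.6, 94.5 and 48.1 for GATA4 and 94.7, 97.8 and 97.0 for GATA6. By that highest region, each GATA6 percentile was above each GATA4 percentile, as was so for 5.72% of the regions called in all 6 libraries. The peak heights of these regions overlapped, at 9, 10 and 6 reads for GATA4 and 14, 8 and 11 for GATA6. A second region of both lists lay in an intron, 8604 bp from the TSS, at chr8:34815901-34816571 for GATA4 and chr8:34815932-34816566 for GATA6. It stood at percentiles 95.7, 67.7 and 82.6 of the GATA4 lists and 80.8, 96.1 and 92.3 of the GATA6 lists, which overlapped.

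The third combined GATA4 region of the Dusp4 window lay 43149 bp from the TSS in intergenic sequence, at chr8:34763698-34764148, with percentiles of 89.9, 86.1 and 66.3. GATA6 replicates 2 and 3 had a region there at percentiles 72.8 and 18.7, and GATA6 replicate 1 had none.

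Dusp4 was the 1 gene of the 10 at which the number of regions did not overlap between the factors. The GATA4 libraries held 7, 7 and 7 regions and the GATA6 libraries 10, 11 and 13, a mean of 11.3 ± 1.53 against 7 ± 0 (SD, n = 3 each, exact permutation p = 0.1, the smallest this design allows). More regions in every GATA6 library than in any GATA4 library were found at 1.5% of all genes and at 3.08% of the genes of chromosome 8. The opposite was found at 5.36% of all genes and at 0 of the 10. Of the 30 distinct regions of the window, 20 were called in a single library. The difference turned to 2 more in GATA4 in a window of 100 kb to either side (exact permutation p = 0.5).

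At Dusp6 a combined GATA4 region covered the TSS, chr10:99262842-99263465, and it contains the Dusp6 sequence printed above. Its percentiles were 80.7, 87.8 and 54.8 in the GATA4 lists. In GATA6, replicate 1 alone had a region there, at percentile 2.78. The peak height was 6, 7 and 6 reads in the GATA4 libraries and 6 in that GATA6 library. The nearest combined GATA6 region was 695759 bp away, in intergenic sequence, and 83.4% of genes had a nearer one. The window held 2, 3 and 2 regions in the GATA4 libraries and 2, 1 and 1 in the GATA6 libraries, which overlapped (2.33 ± 0.58 against 1.33 ± 0.58, SD, n = 3 each, exact permutation p = 0.3).

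Etv5 encodes an ETS transcription factor that is induced by FGF signalling. Its 1 combined region of each factor covered the TSS, at chr16:22439518-22440170 for GATA4 and chr16:22439576-22440086 for GATA6. Percentiles were 97.0, 98.0 and 86.0 in the GATA4 lists and 78.3, 88.2 and 88.6 in the GATA6 lists. The factors overlapped, with GATA4 replicate 3 below the upper GATA6 libraries. The window held 3, 5 and 3 regions in the GATA4 libraries and 4, 2 and 2 in the GATA6 libraries (3.67 ± 1.15 against 2.67 ± 1.15, SD, n = 3 each, exact permutation p = 0.5).

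**Figure D3:**
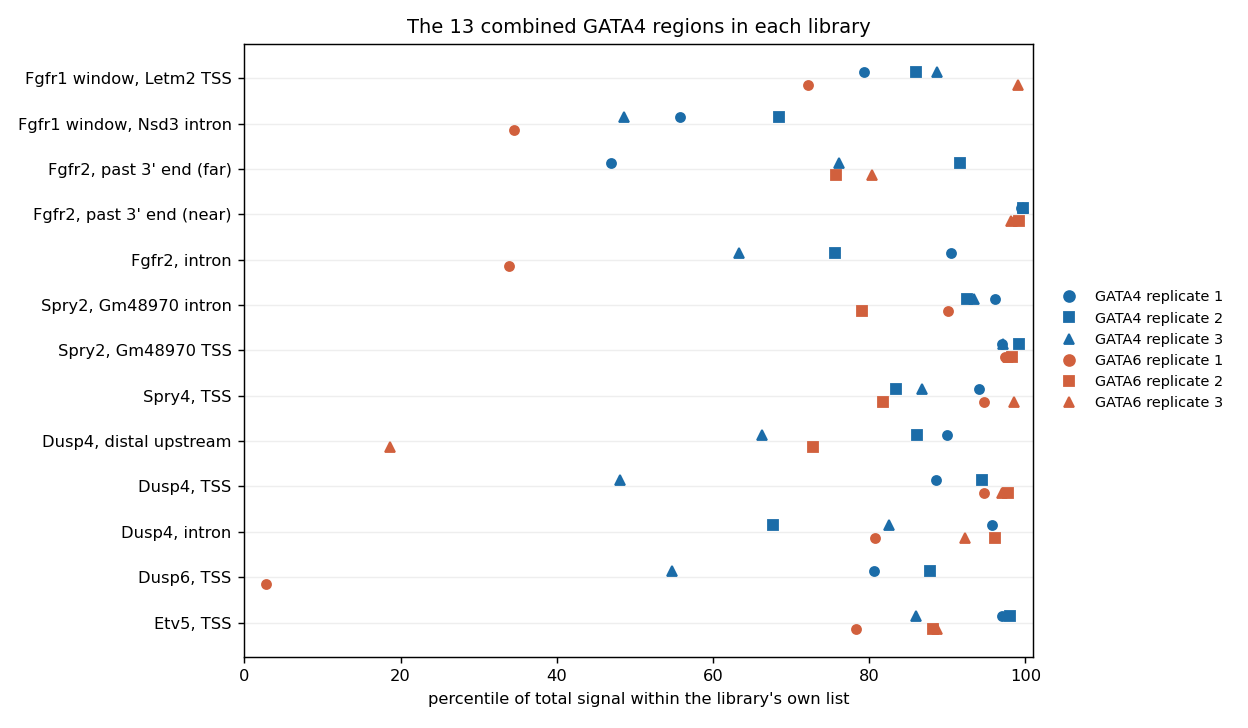
Percentile of total signal within the library's own list (horizontal axis) for the 13 combined GATA4 regions, 1 symbol per library that had an overlapping region. The region nearest past the 3′ end of Fgfr2 and the region at the Gm48970 start near Spry2 sit above 96 in all 6 libraries, the other regions of these genes sit lower or are missing from some GATA6 libraries, and the Dusp6 TSS region sits at 2.78 in the 1 GATA6 library that has it.

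Over all windows together, the GATA4 libraries held 43, 38 and 37 regions and the GATA6 libraries 48, 30 and 33. The means were 39.3 ± 3.21 and 37.0 ± 9.64 (SD, n = 3 each), a difference of 2.33 regions that is smaller than the spread of the GATA6 libraries. Without GATA6 replicate 1 the difference was 7.83. Per 10000 regions of the list, the GATA4 libraries held 8.67, 8.15 and 7.65 and the GATA6 libraries 10.3, 7.07 and 7.41, which overlapped.

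Most of the distinct regions were called in only 1 library. Merging the 6 lists gave 130 distinct regions in the 10 windows, of which 91 (70.0%) were called in 1 library and 7 (5.39%) in all 6. Over the genome, 83.2% of 201994 merged regions were called in 1 library and 1.88% in all 6. The genome shares take in sequence far from genes, and no such share over gene windows was computed. Fgfr1, Dusp4 and Spry2, on the dense chromosomes 8 and 14, held 36, 30 and 14 of the 130 regions, and 1, 2 and 1 of the 7. The 7 were the Letm2 TSS region in the Fgfr1 window, the near 3′ region of Fgfr2, the Gm48970 start near Spry2, the TSS and the intron of Dusp4, and the TSSs of Spry4 and Etv5. Their percentiles, averaged over the libraries, had a median of 89.3 (85.4 to 99.1), against 41.0 (1.46 to 87.6) for the 91 regions of 1 library. The ranges are of unlike values, since each of the 91 has a single value. Single values of the 7 went down to 48.1, at the Dusp4 TSS in GATA4 replicate 3. By place, 51 of the 130 were intergenic, 49 intronic and 21 within 1 kb of a TSS of some gene, and 9 lay in exons.

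**Figure D4:**
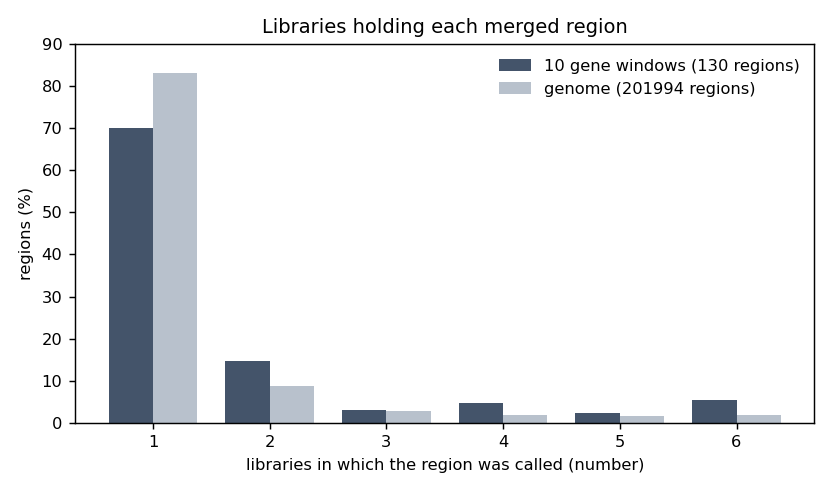
Share of merged regions (vertical axis, %) by the number of libraries in which they were called, for the 130 regions of the 10 windows and for the 201994 of the genome. Most regions of both sets stand at 1 library, 70.0% in the windows and 83.2% in the genome.

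Within the combined lists, the 13 GATA4 regions had a median percentile of 82.0 against 85.0 for the whole list, and the 7 GATA6 regions 91.7 against 83.5. Of 83 regions merged over the GATA4 libraries in the windows, 15.7% were in all 3 libraries, against 7.12% over the genome. For GATA6 it was 8.54% of 82, against 4.57%. These genome shares also take in sequence far from genes.

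Within 100 bp of the midpoint, 6 of the 13 GATA4 regions held a GATA match (46.2%, exact 95% binomial interval 19.2% to 74.9%), and 39.8% of the combined GATA4 list did. These were 5 of 7 regions more than 1 kb from a TSS, where 59.7% of the list did, and 1 of 6 at a TSS, where 18.4% did. The 1 at a TSS was the Gm48970 start. Among the GATA6 regions 3 of 7 held one (42.9%, interval 9.90% to 81.6%), against 33.1% of the list. The intervals cover counting error only.

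The ETS core CCGGAA was found in 3 of the 13 GATA4 regions and 3 of the 7 GATA6 regions, at Spry4, in the Dusp4 intron and at the Gm48970 start. It was found in 11.2% and 11.9% of the whole lists. Within 1 kb of a TSS it was in 2 of 6 GATA4 and 2 of 5 GATA6 regions, against 19.1% and 18.7% of the lists. Farther from a TSS it was in 1 of 7 and 1 of 2, against 3.85% and 3.87%. The AP-1 motif TGANTCA was found in 1 region of each list, that of Gm48970, and in 7.47% and 6.91% of the lists.

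RefSeq promoter entries (GRCm38.p6) were matched for 7 of the 10 genes, with 8 entries. Fgfr1, Dusp4 and Spry4 had no entry. The promoters of Dusp4 and Spry4, which had combined regions of both factors at the TSS, were thus not scanned here. In the 250 bases before the start, 1 of the 8 held a GATA match, that of Fgf3, where no library had a called region. The ETS core was in 1, that of Fgf5, and the AP-1 motif in 0. Of all 32851 entries, 26.5% held a GATA match, 12.0% the ETS core and 6.75% the AP-1 motif. A match is a stretch of letters and not a measured site.

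A list of 69 further genes of the pathway was read the same way, of which 68 were found among the protein-coding genes. A combined GATA4 region lay in the window of 43 (63.2%) and a combined GATA6 region in that of 36 (52.9%), against the 48.1% and 38.3% of all genes given above. Regions of both factors lay at 31 genes, and 20 genes had neither, against 33.8% and 47.4% of all genes. More regions in every GATA4 library than in any GATA6 library were found at 6 of the 68 genes, namely Fgfr3, Klb, Nras, Map2k1, Rasa1 and Etv4, and at 5.36% of all genes. The reverse was found at 1 gene, Elk3, and at 1.5% of all genes.

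By role, GATA4 regions lay at 7 of 15 other ligand genes, at all 5 other receptors and coreceptors, at 18 of 20 adaptors and kinases from the receptor to ERK, at 6 of 16 inhibitors and at 7 of 12 ETS factors and other ERK targets. GATA6 regions lay at 6, 3, 13, 7 and 7 genes of these classes. Among the inhibitors, Spry1, Spred1, Spred2, Dusp5, Dusp8, Dusp9, Rasa1 and Nf1 had neither. Among the ETS genes, Etv4, a close relative of Etv5, had 4 GATA4 regions and 1 GATA6 region, and Etv1, Ets2, Elk3 and Elk4 had none of either.

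Regions of both factors within 1 kb of a TSS were found at 9 of the 68 genes, and at 10.5% of all genes. The 8 highest ranked were Shc1 (an adaptor), Fgfr3 (a receptor), Dusp10 (a phosphatase), Ier2 (an immediate early gene), Il17rd (a membrane inhibitor of FGF signalling), Frs3 (an adaptor of FGF receptors), Ets1 (an ETS factor) and Spred3 (a relative of the Sproutys). At Shc1 the TSS regions had mean percentiles of 97.6 for GATA4 and 96.1 for GATA6. At Fgfr3 these were 96.3 and 96.4, and at Dusp10 95.8 and 96.3. At Spred3, the lowest of the 8, they were 59.1 and 70.3.

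**Figure D5:**
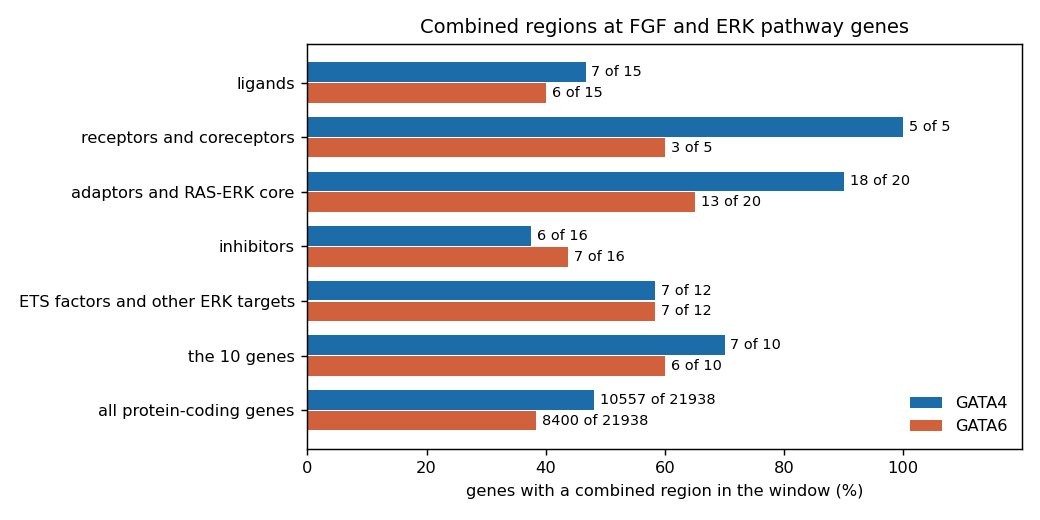
Share of genes with a combined region in the window (horizontal axis, %), for 5 classes of the further pathway genes, the 10 genes described here and all protein-coding genes, with the number of genes beside each bar. For GATA4 the inhibitors stand at 6 of 16 and the adaptors and RAS-ERK core at 18 of 20, on either side of the share of all genes. For GATA6 these classes stand at 7 of 16 and 13 of 20, both above that share.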

How the data were processed

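CUT&RUN was performed on XEN cells with antibodies to GATA4 and GATA6, 3 libraries per factor by the labels. The study's methods also name a second line, 3F6, and 2 replicates; the labels were followed. Per the labels and methods, the authors aligned paired reads to mm10 with Bowtie2 2.3.4.1, removed duplicates, reads with mapping quality under 20, chrM and blacklisted regions, and called regions with SEACR 1.3 (numeric threshold 0.01). An IgG antibody is named in the methods and was not analysed here. The 6 deposited lists give each region's total and maximum signal, which is read coverage with no depth scaling, and the deposited combined lists give positions only. Merging the 3 lists of a factor and keeping regions present in all 3 gave the same 8282 and 5170 regions as the combined lists.

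Windows used GENCODE mouse release 21. Transcripts that ran over 100 kb past the RefSeq gene of the same symbol were left out (70 genes), since 1 such transcript stretches Fgfr2 from 104 kb to 2961 kb. Numbers of regions per library were compared between the factors with an exact permutation test (two-sided, 20 splits of 6 libraries), run over all 21938 protein-coding genes with Benjamini-Hochberg adjustment. Features were read at region midpoints, a promoter being within 1 kb of a TSS, and motifs within 100 bp of the midpoint. A percentile is the rank of a region's total signal within its library's list, taken from the highest region where several of a library overlapped. The 10 genes and the pathway list were chosen with earlier results of these data known. All 10 genes were described. Regions were named when they were combined regions at a TSS or the highest ranked of a list, and the other combined regions in the windows were added so that each was accounted for. At genes with no combined region, those in most libraries and the nearest combined region were named. Pathway genes were named as the 8 highest by mean percentile with regions of both factors at a TSS, and others outside that rule were chosen after their values were seen. Counting and merging were tested on simulated data. Python 3.11.15, pandas 2.3.3, scipy 1.17.1 and pysam 0.24.0 were used. Alternatives were other windows, list lengths, merging rules, motif windows and leaving out each library.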

Additional observations from a re-analysis of the deposited data

How the results depend on the processing

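Of 83 alternatives to the main counts, medians and shares, 61 stayed within 1.5 times the count, within 1 SD between libraries or within the binomial interval, and 22 did not. In a window of 10 kb around each TSS without the gene body, combined regions fell to 6 for GATA4 and 4 for GATA6, with 3 genes holding one of GATA6; within 100 kb they were 20 and 12, and with regions in at least 2 of 3 libraries 21 and 18. A pair of choices was added after seeing the data: with the GENCODE record of Fgfr2 as it stands there were 23 and 13 combined regions, and outside chromosomes 8, 14 and 19 there were 6 at 4 genes (GATA4) and 3 at 3 genes (GATA6), with a difference of 4 regions per library. Leaving out 1 library in turn gave 7 and 6 genes, 13 to 17 combined GATA4 regions and 10 to 12 combined GATA6 regions. A region then had to be in only the remaining libraries of its factor. That rule is looser, so these counts could hardly fall, and they do not show that the main counts are stable. The difference was -1.17 to 7.83 regions per library, and the median percentiles were 78.1 to 84.2 (GATA4) and 85.0 to 89.96 (GATA6). Without GATA6 replicate 2 there were 12 combined GATA6 regions, and without GATA6 replicate 1 the difference was 7.83. With 1 TSS per gene, 6 genes held 9 combined GATA4 regions and 4 genes held 5 combined GATA6 regions. The difference was then -2 regions per library. These values are counted among the 61 that stayed. The median percentile was 88.0 (GATA4) and 94.0 (GATA6) by maximum signal, and 88.4 for GATA4 by signal per base pair. For single genes, 4 of 120 alternatives reversed the sign of a difference. They were Fgfr1 in the 10 kb window (-0.33) and without GATA6 replicate 2 (-0.17). The others were Fgf5 (0.33) and Dusp4 (2) in the 100 kb window. The 120 include cases that could not count as reversed, namely the replicate block and every alternative at Spry2 and Spry4. Both Sprouty genes had a main difference of 0, and Spry2 ran from -1.17 to 1. No p was under 0.1, and none of these tests could give one. The other leave-one-out differences at Fgfr1 reached 5.83 without GATA6 replicate 1. The cause of these changes was not tested. Same-numbered libraries did not deviate together (correlation over genes -0.01, 0.03 and -0.03). With a replicate block the difference is 2.33 by construction, although it is counted among the 61 that stayed. Dusp4 then had an exact sign-flip p of 0.25, the smallest possible. Depth after filtering is unknown, and a region absent from a list may be a weak one.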
